A study of Caenorhabditis elegans with 12 samples.

Results

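UV-B irradiation changed the expression of most genes in first-stage (L1) larvae of Caenorhabditis elegans, and the genes described here are those that changed by a different amount in a mutant of the DREAM complex than in the wild type. For each gene the UV effect in wild-type N2 larvae was subtracted from the UV effect in lin-52(n771) larvae, and this difference of differences is called the interaction. A positive interaction means a higher UV effect in lin-52, which can be a weaker repression or a stronger induction, and a negative one means a lower UV effect. The table held 46245 gene identifiers, and the test covered the 12913 protein-coding genes whose FPKM (fragments per kilobase of transcript, scaled to the mapped fragments of the library) averaged 1 or more over the libraries. The interaction passed the test (limma, Benjamini-Hochberg adjusted p below 0.05, referred to as called) in 1503 of them, or 11.6% of the genes tested, with 702 positive (5.44%) and 801 negative (6.2%). At an unadjusted p below 0.05 there were 3539 genes.

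The 12 libraries formed 4 groups of 3, which were N2 mock, N2 UV, lin-52 mock and lin-52 UV. N2 is the standard laboratory wild type. The mutant was strain MT8839, which carries the lin-52(n771) allele on chromosome III and may keep some function of the gene. After 3 h of feeding, synchronised larvae of each strain were exposed to 60 mJ/cm2 of UV-B or mock treated, and collected whole 6 h later, so that every value averages over all tissues. One mutant strain was used, so an effect of the allele and an effect of other differences between the strains cannot be told apart.

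LIN-52 is a subunit of DREAM, a complex that binds the promoters of many cell cycle and repair genes in resting cells and keeps them repressed. UV-B makes bulky lesions between neighbouring pyrimidines, which block transcription and are removed by nucleotide excision repair. In L1 larvae, whose body cells mostly do not divide, UV also alters stress and immune genes, genes of growth and metabolism, and the genes that build the next cuticle.

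Depth per library is unknown, since the table gives no reads. The summed FPKM of the libraries ran from 1243647 to 1398489, and 12475 to 12973 protein-coding genes per library reached 1 FPKM. Ribosomal RNA took 22.64% and 19.79% of the summed FPKM in lin-52 mock 2 and lin-52 mock 4 and 11.64% to 16.20% in the other libraries. On the first principal component, which carried 70.3% of the variance, the 6 mock libraries lay between -51 and -45.3 and the N2 UV libraries at 55.6, 59.3 and 58.1. The lin-52 UV libraries lay closer to the mock libraries, at 46.1, 38.3 and 36.2, and lin-52 UV 2 was the nearest of the 3 to N2 UV. Body wall muscle and neuron markers were all above the filter (23 of 23 and 34 of 34), while none of the vitellogenins and 2 major sperm protein genes, which mark later stages, were above it. Of a list of 12 markers of later larvae and adults 5 were above it.

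The response to UV was the same in kind and smaller in size in lin-52. The UV effects of the 2 strains, which share no library, correlated across genes with Pearson's r = 0.915 and Spearman's rho = 0.908, as a description over genes, which are not independent. In N2 36.6% of genes rose and 37% fell, and in lin-52 33.1% rose and 33.5% fell (limma, adjusted p below 0.05). The SD of the log2 UV effects over all genes was 0.95 in N2 and 0.808 in lin-52. At least 2-fold changes were seen in 2509 genes in N2 (1478 induced, 1031 repressed) and in 1650 in lin-52 (1040 induced, 610 repressed). Of 1481 genes that changed at least 2-fold the same way in both strains, 1165 (78.7%) had the smaller effect in lin-52, and the median ratio of the lin-52 to the N2 effect was 0.866.

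**Figure D1:**
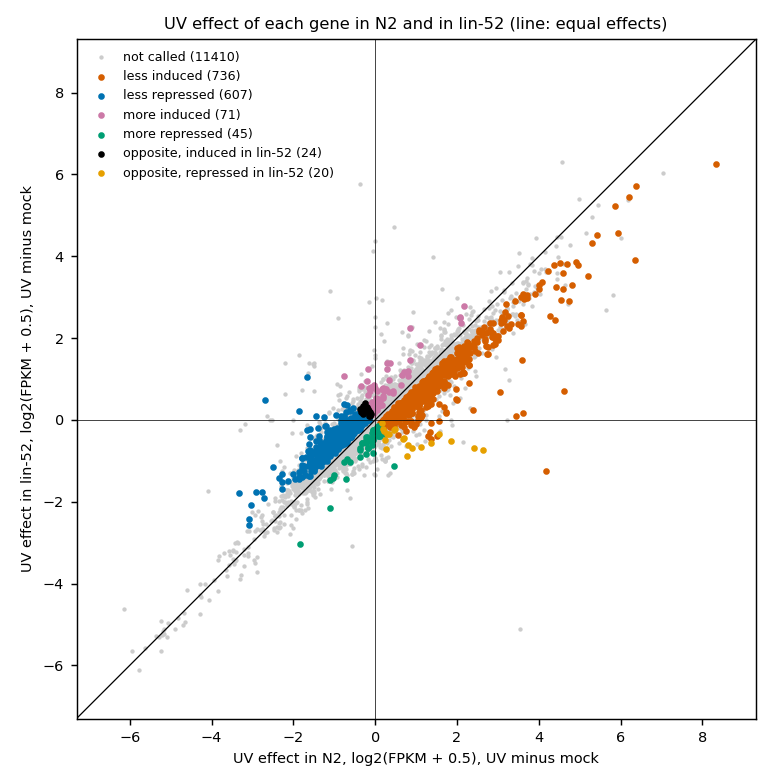
UV effect (log2 of FPKM + 0.5, UV minus mock) of each of the 12913 genes in N2 (horizontal axis) and in lin-52 (vertical axis), coloured by the class of the called genes, with the line of equal effects. The 736 less induced genes lie below the line on the right and the 607 less repressed genes above it on the left.

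The difference in size was visible in each library. The 943 genes induced at least 2-fold in both strains had a median log2 difference from their strain's mock mean of 1.76, 1.84 and 1.81 in N2 UV 1, 2 and 3 and of 1.61, 1.47 and 1.44 in lin-52 UV 2, 3 and 4. The 538 genes repressed at least 2-fold in both were at -1.60, -1.68 and -1.62 in the N2 UV libraries and at -1.49, -1.47 and -1.34 in the lin-52 UV libraries. The strains did not overlap in either set. Since these genes were picked with the same libraries, the values are a description. The library lin-52 UV 2 had the largest response of its group in both sets.

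**Figure D2:**
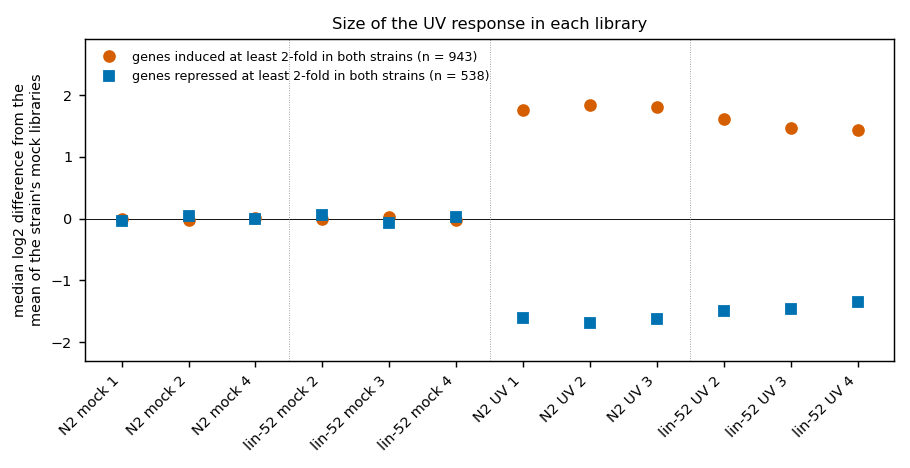
Median log2 difference of each library from the mean of its strain's mock libraries, for the 943 genes induced (circles) and the 538 genes repressed (squares) at least 2-fold in both strains. The N2 UV libraries sit farther from 0 than the lin-52 UV libraries in both sets, and the mock libraries of both strains lie near 0.

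Called genes were put into classes by the UV effects in the 2 strains. Most of them, 1343 or 89.4%, responded more weakly in lin-52. Of these 736 were less induced, with a median log2 UV effect of 1.07 in N2 and 0.60 in lin-52, and 607 were less repressed, with medians of -0.85 and -0.42. In 53 and 54 of these the lin-52 effect had the other sign and was not called. In 116 genes the UV effect was called in lin-52 and larger in size than in N2, and of these 71 were more induced (medians 0.04 and 0.62) and 45 more repressed (-0.13 and -0.48). The N2 effect was called in 24 of the 71 and 19 of the 45, and in 26 and 13 others it had the other sign without a call. The remaining 44 genes were called in both strains in opposite directions, 24 with induction in lin-52 (-0.20 and 0.23) and 20 with repression in lin-52 (0.70 and -0.47). The classes use the same values as the interaction, so the medians only describe them. The differences were small in most genes, with a median absolute interaction of 0.41 on the log2 scale beside a median SE of 0.12, and 355 called genes differed by at least 1.5-fold and 95 by at least 2-fold.

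Among the less induced genes lin-52 UV 2 was the highest of the 3 lin-52 UV libraries in 525 of 736 (71.3%), and among the less repressed genes it was the lowest in 352 of 607 (58%). Without it the number of called genes was 2191. The number was 957 without N2 mock 1, 843 without N2 UV 2, 971 without N2 UV 3, 919 without lin-52 UV 3 and 821 without lin-52 UV 4. Without the 2 mock libraries high in ribosomal RNA, which leaves lin-52 mock 3 alone in its group and assumes that it varies like the other groups, 499 genes were called and 439 of them were among the 1503. No called gene changed its sign when a library was left out, and 595 of the 1503 kept their call in every setting with 12 libraries and with each library left out.

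The named genes with the largest loss of induction were low in N2 mock larvae. They were taken from the genes averaging 5 FPKM or more with no library at 0 and a call kept in every setting with 12 libraries, and some genes with a library at 0 had larger differences. The expression of fipr-26, a member of a family of small secreted peptides related to fungus-induced proteins (chromosome I, 8946686 to 8947201, WBcel235), was 0.944, 0.764 and 0.844 FPKM in N2 mock and 103, 105 and 123 in N2 UV. In lin-52 the same gene went from 3.45, 3.00 and 2.58 to 53.6, 49.1 and 52.5. No library of one group reached into another, with lin-52 higher than N2 without UV and lower after it. The log2 UV effect was 6.35 in N2 and 3.90 in lin-52, an interaction of -2.45 ± 0.14 (SE, limma, adjusted p = 5.86e-06). The gene dao-6 rose from 5.10, 3.19 and 5.31 to 91.4, 103.6 and 119.1 in N2 and from 7.92, 6.58 and 7.62 to 62.9, 37.5 and 31.9 in lin-52 (interaction -1.96 ± 0.33, adjusted p = 0.00571), with lin-52 UV 2 the highest of its group. F59B1.10, whose mock groups differed by 0.27 on the log2 scale (adjusted p = 0.218), reached 68.2, 87 and 83.8 in N2 UV and 36.4, 30.3 and 32.4 in lin-52 UV (-1.52 ± 0.16, adjusted p = 0.000415). For ifas-2 the interaction was -1.63 ± 0.18 (adjusted p = 0.000651).

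In other genes the strains differed in the level without UV more than in the level after it. The RNA-dependent RNA polymerase gene rrf-2 was at 5.017, 4.996 and 4.887 in N2 mock and 20.2, 21.8 and 20.7 in N2 UV, against 13.3, 13.5 and 13.1 in lin-52 mock and 24.8, 22.7 and 21.5 in lin-52 UV. The levels after UV differed by 0.13 on the log2 scale (adjusted p = 0.118), the levels without UV by 1.34 (adjusted p = 3.95e-08), and the interaction was -1.21 ± 0.08 (adjusted p = 2.79e-05). The order was similar for rad-50, a subunit of the complex that detects double-strand breaks, at 14.7, 15.6 and 14.8 in N2 mock and 23.15, 21.94 and 23.62 in lin-52 mock, but at 48.3, 50.8 and 50.1 in N2 UV and 52.7, 52.2 and 50.1 in lin-52 UV (interaction -0.54 ± 0.06, adjusted p = 0.000737). After UV the strains differed by 0.06 (adjusted p = 0.365). Y6E2A.4 rose from 2.23, 3.19 and 1.67 to 20.2, 24.7 and 23.5 in N2 and from 9.78, 7.98 and 8.22 to 19.2, 12.9 and 11.6 in lin-52 (-2.36 ± 0.29, adjusted p = 0.00119). It shares 432 bases of its span on chromosome V with Y6E2A.5 on the same strand, so reads of the 2 genes may have been assigned in part to either.

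**Figure D3:**
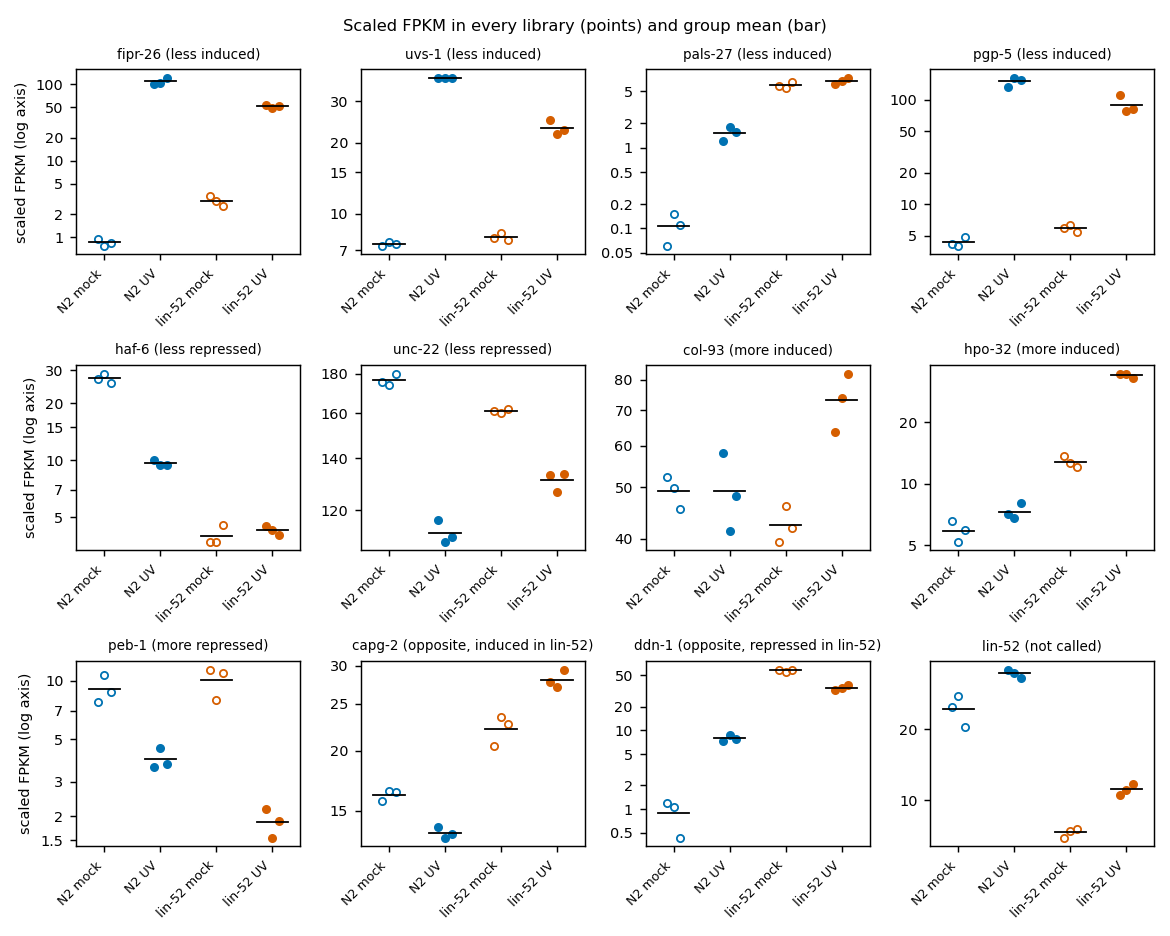
Scaled FPKM (log axis, a separate range in each panel) of 12 genes in every library, with mock libraries as open and UV libraries as filled points and the group mean as a bar. The genes fipr-26, uvs-1 and pgp-5 end lower in lin-52 UV than in N2 UV, pals-27 starts high in lin-52, and ddn-1 and capg-2 move in opposite directions in the 2 strains.

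Nucleotide excision repair genes responded less or showed no called difference. Of 21 tested genes of the pathway 6 were less induced in lin-52 (28.6%) and none had a positive call, beside 6.2% and 5.44% of all genes, and the median UV effect was 0.35 in N2 and 0.25 in lin-52. The transcription-coupled branch, which acts where a lesion stalls RNA polymerase, held the largest differences. The expression of uvs-1, a scaffold of that branch, was 7.29, 7.60 and 7.46 in N2 mock, 7.84, 8.28 and 7.69 in lin-52 mock, 37.7, 37.7 and 37.6 in N2 UV and 25.0, 21.7 and 22.5 in lin-52 UV. The mock groups differed by 0.09 on the log2 scale (adjusted p = 0.476) and the UV groups did not overlap (interaction -0.78 ± 0.08, limma, adjusted p = 0.000415). The gene csb-1, which encodes the factor that recognises the stalled polymerase, was at 19.4, 22.5 and 21.9 in N2 UV and 13.9, 13.6 and 13.2 in lin-52 UV (-0.78 ± 0.13, adjusted p = 0.00575). The kinase part of TFIIH followed, with cyh-1 (cyclin H) at -0.50 ± 0.09 and cdk-7 at -0.40 ± 0.07 (adjusted p = 0.00794 and 0.00547). The damage-recognition genes rad-23 (-0.32 ± 0.07, adjusted p = 0.0158) and ddb-1 (-0.21 ± 0.05, adjusted p = 0.0236) completed the 6, and rad-23 rose in N2 by 0.32 and was at 0.00 in lin-52. The core factors xpa-1, xpc-1 and xpg-1 had interactions of -0.15 ± 0.11, -0.04 ± 0.08 and -0.22 ± 0.09, none of them called. Leaving out 1 library gave 5 to 7 called genes. Leaving out the 2 mock libraries high in ribosomal RNA gave 4.

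Repair genes as a whole differed no more often than other genes. The study used a Gene Ontology list of DNA damage response genes, and of the 192 members that could be tested 14 had a negative call (7.29%) and 6 a positive one (3.12%), with a median interaction of -0.03 beside 0.00 over all genes. Negative calls numbered 9 without N2 mock 1, 8 without N2 mock 2, 8 without lin-52 mock 2, 8 without lin-52 mock 4, 7 without N2 UV 2, 7 without N2 UV 3, 9 without lin-52 UV 3, 7 without lin-52 UV 4 and 8 under quantile normalization. Positive calls were between 3 and 9. Without the 2 mock libraries high in ribosomal RNA 5 negative and 2 positive calls were left. The checkpoint kinase gene atl-1, the worm ATR, was less induced, from 21.26, 20.98 and 19.93 to 88.2, 98.9 and 98.5 in N2 and from 21.56, 21.96 and 19.42 to 69.9, 69.0 and 70.9 in lin-52 (-0.46 ± 0.08, adjusted p = 0.00657). Its relative atm-1, the worm ATM, was at 14.9, 14.9 and 15.2 in N2 mock and 14.2, 14.4 and 14.9 in N2 UV, and fell in lin-52 from 22.96, 22.52 and 23.19 to 16.11, 16.47 and 16.90 (-0.42 ± 0.06, adjusted p = 0.00273). The apoptotic nuclease gene crn-2 (-0.90 ± 0.13, adjusted p = 0.00273) and the cross-link repair nuclease gene fan-1 (-0.43 ± 0.12, adjusted p = 0.0339) were less induced. The gene smc-5, a subunit of the SMC-5/6 complex that acts in recombinational repair, rose by 0.79 in N2 and 1.07 in lin-52 (0.28 ± 0.07, adjusted p = 0.021). Its partner smc-6 went the other way, with 1.15 and 0.92 (-0.23 ± 0.06, adjusted p = 0.0363). None of 6 translesion synthesis genes was called, which is too few genes to be told from the 11.6% called over all genes. The polymerase gene polh-1, whose product bypasses UV lesions, had an interaction of 0.06 ± 0.13.

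The p53 relative cep-1 and its apoptotic target egl-1 gave no called difference. The interaction was 0.02 ± 0.13 for cep-1 (adjusted p = 0.932) and -0.01 ± 0.50 for egl-1 (adjusted p = 0.991), whose level was below 5 FPKM in every library, and an SE of 0.50 leaves room for a 2-fold difference. Among the 8 DREAM genes lin-53 and lin-35 were less repressed (0.38 ± 0.07, adjusted p = 0.00794, and 0.29 ± 0.08, adjusted p = 0.0498, limma). These were 25% of a short list, beside 5.44% positive calls over all genes, and no member had a negative call. The call of lin-35 was lost under quantile normalization, with a pseudocount of 1, without a filter, over all biotypes, without the trend, and when any library other than lin-52 UV 2 was left out (adjusted p up to 0.121), while that of lin-53 was kept in these settings. The span of lin-35 shares 1582 bases with C32F10.4 on the other strand. The mutated gene lin-52 itself rose with UV by 0.51 in N2 and 0.57 in lin-52 (interaction 0.07 ± 0.13, adjusted p = 0.788), from levels of 24.9, 27.6 and 20.4 in N2 mock and 6.94, 7.43 and 7.58 in lin-52 mock.

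The intracellular pathogen response, a set of genes that worms switch on against microsporidia and viruses, lost much of its UV induction in lin-52. Of 19 tested genes of the pals family, a family expanded in nematodes, 9 had a negative call (47.4%, beside 6.2% of all genes) and none a positive one, and the median UV effect was 1.37 in N2 and 0.44 in lin-52. The levels behind these folds were of 2 kinds. In the first the gene was already on without UV. The expression of pals-27 was 0.0608, 0.149 and 0.111 in N2 mock and 1.203, 1.824 and 1.563 in N2 UV, against 5.81, 5.43 and 6.55 in lin-52 mock and 6.18, 6.75 and 7.36 in lin-52 UV. Every lin-52 library, with or without UV, was above every N2 UV library (interaction -1.56 ± 0.20, limma, adjusted p = 0.00166). The same was true of pals-33, which went from 0.197, 0.107 and 0.180 to 1.404, 1.559 and 1.161 in N2 and from 4.99, 5.64 and 6.62 to 4.53, 5.06 and 3.32 in lin-52. For pals-39 the N2 UV libraries reached 3.64, 4.03 and 3.66 while the lin-52 libraries lay between 6.13 and 7.47. For pals-38, 1309 bases from pals-39 on chromosome V, UV raised the level in N2 and lowered it in lin-52 (0.89 and -0.69). In the second kind the mock levels were closer, as for pals-6 (0.41 on the log2 scale apart, adjusted p = 0.193), at 0.824, 0.518 and 0.579 in N2 mock and 0.873, 0.968 and 1.19 in lin-52 mock, which reached 3.40, 3.54 and 3.15 in N2 UV and 2.65, 1.90 and 2.18 in lin-52 UV (-0.91 ± 0.22, adjusted p = 0.0251). The most abundant called member, pals-23, differed little (-0.24 ± 0.07, adjusted p = 0.039), and its neighbour pals-22, a negative regulator of the response, was not called (0.07 ± 0.17). Members of the family share sequence, so that the split of reads among them is uncertain, and most were low, so that with a minimum mean of 5 FPKM 7 were left and 2 were called. Leaving out 1 library gave 6 to 10 negative calls, and 4 were called without both lin-52 mock 2 and lin-52 mock 4.

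Of 10 other tested genes of the same response 6 had a negative call (60%, beside 6.2% of all genes) and none a positive one. The medians were 1.19 in N2 and 0.65 in lin-52. The cullin gene cul-6, part of a ubiquitin ligase of the response, rose from 2.04, 2.45 and 2.49 to 19.3, 21.3 and 19.9 in N2 and from 3.35, 3.70 and 3.90 to 15.9, 14.1 and 12.8 in lin-52 (-1.05 ± 0.14, limma, adjusted p = 0.00189), without overlap of the UV groups. Its adaptor genes skr-3 and skr-5 had UV effects of 1.17 and 1.36 in N2 against 0.83 and 0.58 in lin-52. The gene rcs-1, a RING protein of the same ligase, did not follow them. It was at 27.4, 29.5 and 29.5 in N2 mock and 29.5, 30.8 and 29.7 in N2 UV. It fell in lin-52 from 52.1, 53.3 and 52.6 to 39.2, 39.8 and 41.7 (-0.44 ± 0.06, adjusted p = 0.00181). The count was 3 without N2 UV 2, 3 without lin-52 UV 3 and 3 without the 2 mock libraries high in ribosomal RNA.

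Genes of F-box proteins of the A family, possible substrate adaptors of such ligases, were mostly induced in both strains. Of 101 tested, 85 rose in N2 and 72 in lin-52. Of the 85, 12 were less induced in lin-52 (11.9% of the 101, beside 6.2% negative calls over all genes). Among all genes 736 of the 4723 that rose in N2 were less induced, a similar share. The 12 included fbxa-3 (3.28 in N2, 2.26 in lin-52, limma, adjusted p = 0.00306). The F-box count was 5 without N2 UV 3, 6 without lin-52 UV 3, 7 without lin-52 UV 4 and 6 in the fit over all biotypes.

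Infection-response genes outside this program had calls in both directions. Of 97 tested C-type lectin genes, many of which respond to infection, 7 had a positive call (7.22%, beside 5.44%) and 5 a negative one (5.15%, beside 6.2%). With 1 library left out the lectins had 1 to 6 positive and 4 to 7 negative calls, and without the 2 mock libraries high in ribosomal RNA 0 and 4. Of 8 irg genes, which respond to bacterial infection, 1 had a positive call (12.5%, beside 5.44%) and none a negative one. The genes irg-5 and irg-2 rose strongly in both strains (4.53 and 4.46, and 5.29 and 4.96), with interactions of -0.07 ± 0.14 and -0.33 ± 0.25. In contrast, irg-6 was more induced in lin-52 (0.86 and 1.47, interaction 0.61 ± 0.14, limma, adjusted p = 0.0174). It went from 22.1, 23.1 and 23.6 to 39.1, 42.8 and 44.4 in N2 and from 11.80, 12.19 and 13.62 to 31.5, 42.3 and 33.8 in lin-52. The bZIP factor gene zip-2, which drives several irg genes, was slightly less induced (-0.32 ± 0.07, adjusted p = 0.0154).

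**Figure D4:**
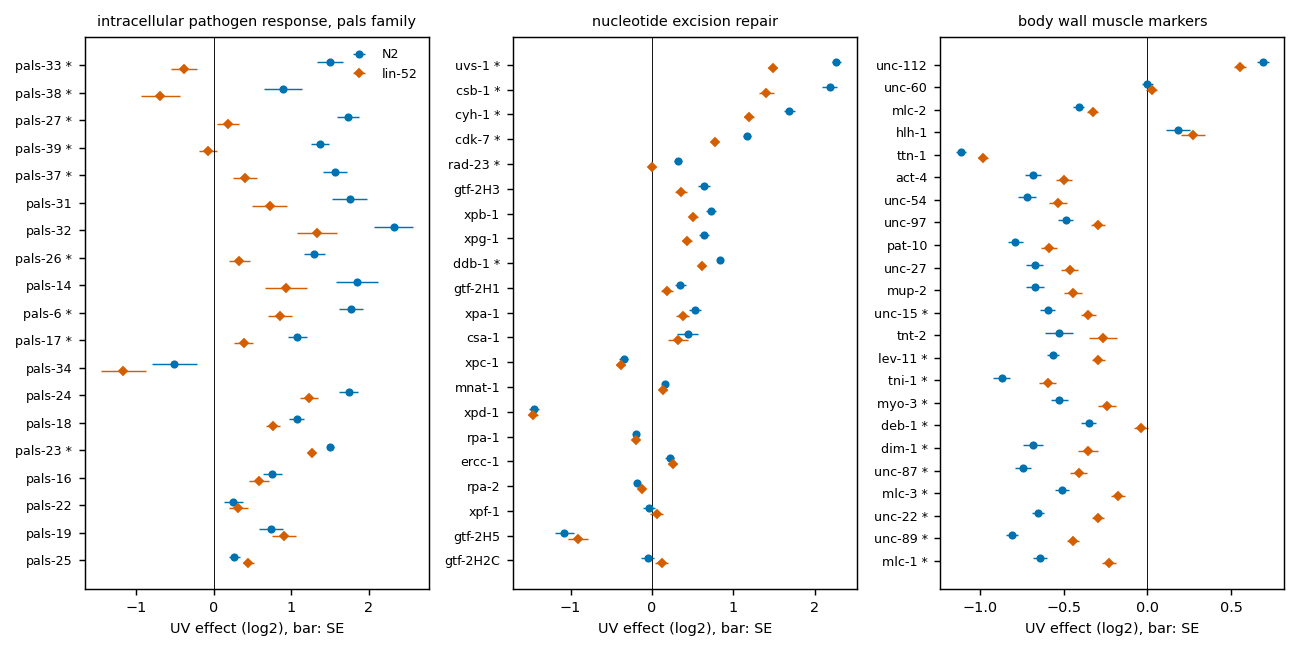
UV effect (log2, bars are SE) in N2 (circles) and lin-52 (diamonds) of every tested gene of 3 lists, with called genes marked by a star. The called pals and excision repair genes lie farther right in N2, and the 11 called body wall muscle genes lie farther left in N2.

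Transporters that export foreign compounds included genes strongly induced by UV in both strains, and part of them were induced less in lin-52. Of 42 tested ABC transporter genes 11 were less induced (26.2% negative calls, beside 6.2%), and 2, pgp-1 and haf-6, were less repressed. The P-glycoprotein genes pgp-5, pgp-8, pgp-7 and pgp-6 lie in this order on the same strand of the X chromosome (10854216 to 10877425, WBcel235), with gaps of 3, 924 and 963 bases. The largest induction of the 4 was that of pgp-8, from 0.676, 0.650 and 0.673 to 77.7, 89.8 and 89.1 in N2 and from 0.730, 0.752 and 0.839 to 56.3, 54.8 and 53.2 in lin-52 (6.20 and 5.44, interaction -0.76 ± 0.10, limma, adjusted p = 0.00173). For pgp-5 the values after UV were 133, 163 and 154 in N2 against 110.2, 77.4 and 81.6 in lin-52 (-1.16 ± 0.18, adjusted p = 0.00397). The neighbours pgp-6 (-0.88 ± 0.15) and pgp-7 (-0.59 ± 0.15) went the same way. For both the strain difference between the mock groups was not called, which does not show that the levels were equal. Related copies may share reads. The number of negative calls in the list was 7 without N2 UV 3, 7 without lin-52 UV 3, 7 without lin-52 UV 4 and 4 without the 2 mock libraries high in ribosomal RNA.

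Enzymes of detoxification were divided. Among cytochrome P450 genes cyp-14A5 was less induced, with a call that held in every setting (2.08 in N2, 1.51 in lin-52, limma, adjusted p = 0.00222). Of 50 tested P450 genes 8 had a negative call (16%, beside 6.2% of all genes) and none a positive one. This count was 5 under quantile normalization, without a filter, over all biotypes or without the trend, and 4 or 5 without any one of N2 mock 1, N2 mock 2, N2 mock 4, lin-52 mock 2, lin-52 mock 4, N2 UV 2, N2 UV 3, lin-52 UV 3 and lin-52 UV 4, with 4 without both lin-52 mock 2 and lin-52 mock 4. Of 58 UDP-glucuronosyltransferase genes 12 had a negative call (20.7%, beside 6.2%) and 6 a positive one (10.3%, beside 5.44%). Among them ugt-18 was less induced (4.43 and 3.24, limma, adjusted p = 0.0222) and ugt-65 less repressed (-2.28 and -1.51, adjusted p = 0.0377). The span of ugt-65 holds another gene of 1012 bases on the other strand. The negative count was 7 without N2 UV 2, 6 without N2 UV 3, 7 without lin-52 UV 3 and 6 without lin-52 UV 4, and the positive count between 2 and 10. The metallothionein gene mtl-1, which binds metals, reached 150.3, 153 and 163 in N2 UV and 104.3, 85.4 and 84.6 in lin-52 UV (-1.13 ± 0.20, adjusted p = 0.0076). Its mock values were 20.8 to 26.3 in N2 and 23.5 to 37.2 in lin-52.

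Among genes that UV lowered, many muscle genes were less repressed in lin-52. Of 23 body wall muscle markers 11 were less repressed in lin-52 (47.8%, beside 5.44% of all genes) and none had a negative call, with a median UV effect of -0.64 in N2 and -0.33 in lin-52. In bulk samples fewer cells of a type and less RNA per cell cannot be told apart. Twitchin, a giant protein of the muscle sarcomere encoded by unc-22, went from 176, 174 and 180.0 to 117, 109 and 110.7 in N2 and from 161, 160.3 and 162 to 133, 127 and 134 in lin-52, with no overlap between any 2 groups (interaction 0.36 ± 0.05, limma, adjusted p = 0.00198). The obscurin gene unc-89 (148.5, 147.6 and 145.7 to 87.6, 80.7 and 83.5 in N2, 139, 135 and 141 to 102, 99.6 and 103 in lin-52) and the myosin light chain gene mlc-1 (0.41 ± 0.06, adjusted p = 0.00281) showed the same order of groups. The genes of tropomyosin (lev-11), paramyosin (unc-15) and a myosin heavy chain (myo-3) had interactions of 0.27, 0.24 and 0.28 with adjusted p of 0.0102, 0.0354 and 0.0318, while the other body wall myosin, unc-54, was not called (0.19 ± 0.08, adjusted p = 0.147). The count was 7 without any one of N2 mock 2, N2 mock 4, N2 UV 2, N2 UV 3, lin-52 UV 3 and lin-52 UV 4 and 7 without the trend, and 9 without the 2 mock libraries high in ribosomal RNA.

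Neuron markers were in part less repressed as well. Of 34 of them 28 fell in N2, and among all genes 607 of the 4782 that fell in N2 were less repressed. Among the 34 neuron markers 11 were less repressed (32.4%, beside 5.44% positive calls over all genes). Another 1 was less induced (2.94%, beside 6.2% negative calls), and the medians were -0.89 in N2 and -0.65 in lin-52. The called genes included the acetylcholine transporter and synthesis genes unc-17 (-1.02 in N2, -0.58 in lin-52, limma, adjusted p = 0.0303) and cha-1 (-1.04 and -0.67, adjusted p = 0.0198), whose spans overlap, the glutamate transporter gene eat-4 (-1.35 and -0.97, adjusted p = 0.0212), the monoamine transporter gene cat-1 (-1.200 and -0.567, adjusted p = 0.0346) and tdc-1, which encodes the tyrosine decarboxylase of tyramine and octopamine synthesis. For tdc-1 the values were 15.7, 16.3 and 15.7 in N2 mock, 4.54, 4.60 and 3.98 in N2 UV, 15.9, 14.5 and 14.9 in lin-52 mock and 6.50, 6.11 and 7.19 in lin-52 UV (0.61 ± 0.11, adjusted p = 0.00657). The mock groups overlapped and the UV groups did not. Positive calls numbered 7 without N2 mock 1, N2 mock 2, lin-52 mock 4 or N2 UV 2, 6 without N2 mock 4, 4 without lin-52 UV 4 and 2 without the 2 mock libraries. Of 12 pharynx markers 4 had a positive call and none a negative one, with 1 called without N2 UV 2, 0 without lin-52 UV 4, and 2 without any one of N2 mock 1, N2 mock 2, N2 mock 4, lin-52 mock 2, lin-52 mock 4 and N2 UV 3, with FPKM as deposited or at equal sums, over all biotypes or without the trend, and 1 without the 2 mock libraries. The 4 pharynx calls were 33.3% of that list, beside 5.44% of all genes. Of 20 intestine markers 3 had a positive call (15%, beside 5.44%) and 1 a negative one (5%, beside 6.2%). The positive count was 1 without any one of N2 mock 1, lin-52 mock 2, lin-52 mock 4, N2 UV 2, lin-52 UV 3 and lin-52 UV 4, 6 without lin-52 UV 2, and 0 without the 2 mock libraries.

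Most genes of the respiratory chain, glycolysis and the tricarboxylic acid cycle were repressed by UV in both strains, and a part of them less so in lin-52. Of 61 nuclear genes of the respiratory chain 57 fell in N2 and 58 in lin-52. Of the 57, 8 were less repressed in lin-52 (13.1% of the 61, beside 5.44% positive calls over all genes). Among all genes 607 of the 4782 that fell in N2 were less repressed, a similar share. An example from the list was cox-11, the copper chaperone gene of cytochrome oxidase. It was at 30.7, 31.5 and 33.8 in N2 mock, 16.01, 18.56 and 17.45 in N2 UV, 34.60, 34.12 and 30.97 in lin-52 mock and 23.1, 25.1 and 25.0 in lin-52 UV (interaction 0.43 ± 0.09, limma, adjusted p = 0.0156). The median over the list was -0.44 in N2 and -0.38 in lin-52. Of 41 genes of glycolysis and the tricarboxylic acid cycle 36 fell in N2. Of the 41, 9 had a positive call, all of them less repressed (22%, beside 5.44% positive calls over all genes). Another 2, the pyruvate kinase genes pyk-1 and pyk-2, were less induced (4.88%, beside 6.2% negative calls). The positive calls were led by the lactate dehydrogenase gene ldh-1 (-1.07 and -0.63, adjusted p = 0.00625) and the isocitrate dehydrogenase gene idh-1 (-1.31 and -0.92, adjusted p = 0.0179). The 44 lipid metabolism genes were divided, with 18 that rose and 22 that fell in N2 and 17 and 22 in lin-52. Of the lipid genes 2, sbp-1 and pmt-1, were less induced (4.55%, beside 6.2%) and 9 were less repressed (20.5%, beside 5.44%). Among the 9 were the desaturase gene fat-1 (-0.66 and -0.27, limma, adjusted p = 0.000424) and the elongase genes elo-2, elo-5 and elo-6. The acyl-CoA dehydrogenase gene acdh-1 was at 326, 355 and 365 in N2 mock, 42.5, 40.1 and 39.5 in N2 UV, 485, 431 and 450 in lin-52 mock and 73.8, 79.5 and 102 in lin-52 UV (0.66 ± 0.14, adjusted p = 0.0146). The respiratory chain count was 5 without N2 mock 2, N2 mock 4, lin-52 mock 4 or N2 UV 2, 4 without N2 UV 3, lin-52 UV 3 or lin-52 UV 4, 5 without the trend and 1 without the 2 mock libraries high in ribosomal RNA. The glycolysis count was 5 without N2 UV 2, 15 without lin-52 UV 2, 4 without lin-52 UV 4, 5 without the trend and 0 without those 2 mock libraries. The lipid count was 5 without lin-52 UV 3 and 2 without those mock libraries. Of negative calls there were 1 or 2 in glycolysis and 0 to 8 in lipid metabolism with 1 library left out, the 8 without lin-52 UV 2, and 0 in both without those mock libraries.

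The named genes with the largest losses of repression were less known ones. F53F1.4 on chromosome V (13411077 to 13411714) was at 1154, 1063 and 1149 in N2 mock, 169, 144 and 136 in N2 UV, 984, 913 and 1009 in lin-52 mock and 225, 318 and 328 in lin-52 UV (interaction 1.15 ± 0.18, limma, adjusted p = 0.00395). F23D12.3 on the X chromosome went from 22.5, 20.7 and 18.6 to 3.15, 3.65 and 2.88 in N2 and from 15.5, 18.5 and 15.6 to 6.91, 6.91 and 7.63 in lin-52 (1.35 ± 0.14, adjusted p = 0.000488). In C01B10.7 (1.56 ± 0.36), C54C6.5 (1.19 ± 0.17) and F10D2.8 (1.05 ± 0.24) the sizes were similar. The ABC half-transporter gene haf-6 was of another kind: UV lowered it in N2 from 27.04, 28.73 and 25.60 to 10.02, 9.45 and 9.48 and left it in lin-52 at 3.72, 3.72 and 4.58 before and 4.52, 4.32 and 4.02 after (1.53 ± 0.12, adjusted p = 7.12e-05). All lin-52 libraries were below all N2 libraries of that gene.

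Many cuticle collagen genes of the col family had a higher UV effect in lin-52. Of 64 tested genes of the col family 22 had a positive call (34.4%, beside 5.44%) and 1 a negative call, and the median UV effect was -0.21 in N2 and 0.16 in lin-52. Within the 22, 14 were less repressed, 6 more induced and 2 opposite. The gene col-93 (chromosome III) was at 52.24, 49.95 and 45.55 in N2 mock, 58, 41.4 and 48.2 in N2 UV, 39.4, 46.2 and 41.9 in lin-52 mock and 63.7, 74.0 and 82.2 in lin-52 UV, so that the lin-52 UV libraries stood above the other 9 (interaction 0.79 ± 0.17, limma, adjusted p = 0.0153). The neighbours col-146 and col-147 on chromosome V, 1016 bases apart on opposite strands, fell in N2 and rose in lin-52. For col-147 the values were 421, 371 and 397 and then 375, 318 and 336 in N2, and 290, 356 and 331 and then 365, 415 and 425 in lin-52, with overlapping groups in N2 and separate ones in lin-52 (0.51 ± 0.12, adjusted p = 0.0229). The col-39 gene was induced in both (2.07 and 2.51, adjusted p of the interaction 0.0421). Collagen genes resemble each other, so reads may be shared. All 1058 bases of the span of col-93 lie within another gene on the other strand. Positive calls numbered 11 without N2 mock 1, 12 without lin-52 mock 2, 13 without lin-52 mock 4, 9 without N2 UV 2, 11 without N2 UV 3, 10 without lin-52 UV 3, 10 without lin-52 UV 4, 6 without both lin-52 mock 2 and lin-52 mock 4, and 13 and 14 without a filter and over all biotypes.

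The genes of the annular furrow collagens and of the precuticle proteins were mostly repressed by UV in both strains. The worm makes these proteins just before a moult. Calls among them were no more frequent than among all genes. The 6 furrow collagen genes had a median UV effect of -4.37 in N2 and -4.55 in lin-52, and 5 of the 6 fell in each strain. None was called, but 6 genes are too few to be told from the 11.6% called over all genes. Of 21 precuticle and apical matrix genes, with medians of -2.19 and -2.07, only cutl-10 was called (0.88 ± 0.11, limma, adjusted p = 0.00176). This was 4.76% of that list, beside 5.44% positive calls over all genes. The expression of noah-1, a zona pellucida domain protein of the apical matrix, was 145, 176 and 156 in N2 mock, 3.62, 4.60 and 4.57 in N2 UV, 209, 149.5 and 195 in lin-52 mock and 3.75, 5.04 and 8.30 in lin-52 UV (0.11 ± 0.31, adjusted p = 0.852). For dpy-7 the interaction was 0.29 ± 0.46 (adjusted p = 0.727). The 6 furrow genes were higher in lin-52 mock 2 and lin-52 mock 4 than in lin-52 mock 3, and their SEs of 0.26 to 0.46 leave room for differences of the size seen elsewhere.

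**Figure D5:**
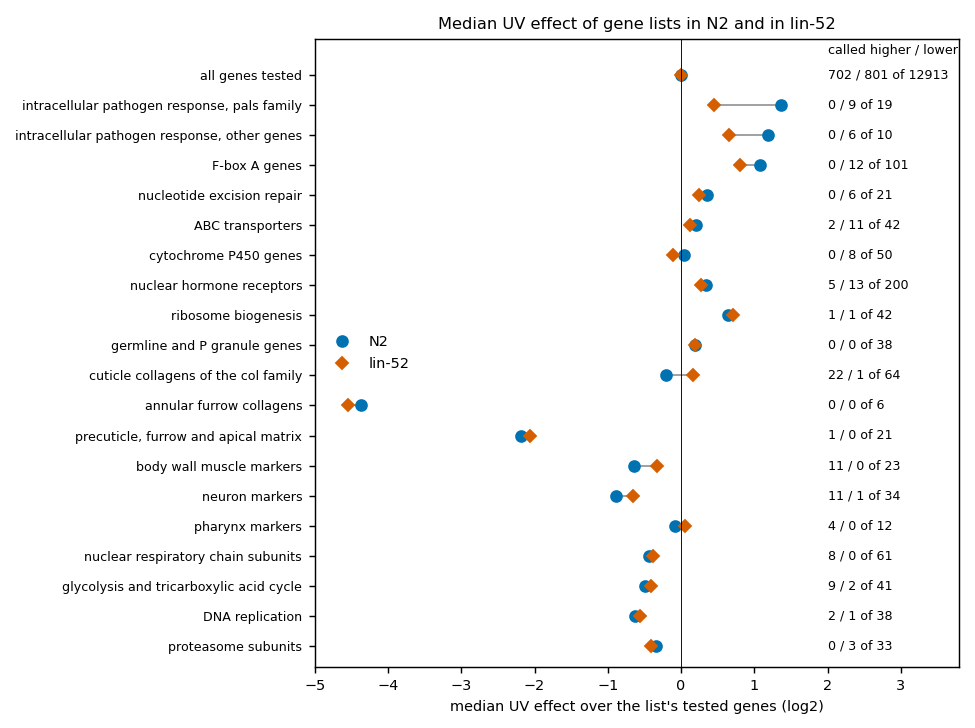
Median UV effect (log2) in N2 (circles) and lin-52 (diamonds) over the tested genes of 19 gene lists and over all 12913 genes, with the number of positive and negative calls at the right. The pals family has medians of 1.37 and 0.44 and the col collagens -0.21 and 0.16, and the furrow collagens lie far below 0 in both strains.

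A stronger response in lin-52 was rare. Among the more induced genes averaging 5 FPKM or more whose call was kept in every setting with 12 libraries, the most changed was hpo-32, a gene named for sensitivity to a pore-forming toxin, at 6.55, 5.19 and 5.91 in N2 mock, 7.07, 6.83 and 8.02 in N2 UV, 13.63, 12.71 and 12.08 in lin-52 mock and 34.7, 34.7 and 33.2 in lin-52 UV. It rose more than 2-fold in lin-52 (1.38) and little in N2 (0.29), an interaction of 1.09 ± 0.12 (limma, adjusted p = 0.000651). F11C7.7 on the X chromosome, 28.9, 24.7 and 26.2 in N2 mock and 23.32, 24.45 and 24.04 in N2 UV, reached 40.6, 44.7 and 41.3 in lin-52 UV from 23.27, 25.96 and 23.53 (0.93 ± 0.09, adjusted p = 0.00035). The adaptor gene shc-3 (0.91 ± 0.15), F15A4.5 (0.84 ± 0.15) and C40H1.7 (0.78 ± 0.12) also rose with UV in lin-52 and had no UV effect called in N2, and F15A4.5 stayed below its N2 level in all lin-52 libraries (20.6, 21.3 and 21.3 in N2 mock, 6.09, 4.86 and 6.18 in lin-52 UV).

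By the same rule peb-1, a DNA-binding protein of the pharynx, had the largest difference of the more repressed genes, although genes left out by it differed more. It went from 7.80, 10.7 and 8.79 to 3.58, 4.47 and 3.73 in N2 and from 11.40, 7.97 and 10.99 to 2.18, 1.54 and 1.90 in lin-52 (-1.05 ± 0.23, limma, adjusted p = 0.0154), with overlapping mock groups and separate UV groups. H41C03.1 (-0.72 ± 0.15), W07E11.1 (-0.55 ± 0.13), ttr-8 (-0.53 ± 0.12) and htrl-1 (-0.50 ± 0.09) followed. The call of W07E11.1, whose span holds the genes flp-2, flp-3 and flp-28 on the other strand, was lost without N2 mock 1, lin-52 mock 4 or lin-52 UV 4. Of 22 aspartic and cysteine protease genes 3 had a negative call (13.6%, beside 6.2%) and 2, cpr-5 and cpr-9, were less repressed (9.09%, beside 5.44%). The 3 were the cathepsin genes cpl-1, cpz-1 and cpr-6, more repressed by 0.37 to 0.42, with cpl-1 at 576, 582 and 577 and then 518, 538 and 529.8 in N2 and 642, 582 and 611 and then 484, 389 and 408 in lin-52 (-0.39 ± 0.10, adjusted p = 0.0234). The negative count was 1 without N2 mock 1, lin-52 mock 2, N2 UV 2, N2 UV 3 or lin-52 UV 4 and 0 without the 2 mock libraries. Proteasome subunit genes were repressed in both strains, 30 of 33 in N2 and 32 in lin-52, with a slightly lower median in lin-52 (-0.34 and -0.41). In 7 of the 33 the effect was smaller in lin-52, beside 8957 of the 12913 genes tested. Of the 33, 3 (rpt-3, rpn-12 and pbs-2) were more repressed (9.09%, beside 6.2% negative calls over all genes). The count was 1 without the trend, 1 without N2 mock 4, lin-52 mock 2 or lin-52 mock 4, and 5 without lin-52 mock 3.

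Of the genes with opposite responses, those repressed by UV in lin-52 had the largest median interaction of the classes (-1.16). The adjacent genes ddn-1 and B0507.8 on chromosome V, 105 bases apart on the same strand, were induced in N2 from below 1.2 FPKM. The values went, for ddn-1, from 1.19, 1.07 and 0.433 to 7.33, 8.77 and 7.78 and, for B0507.8, from 0.676, 0.773 and 0.741 to 5.85, 6.58 and 5.81. In lin-52 they were high without UV and fell, ddn-1 from 58.7, 55.6 and 58.5 to 32.4, 34.3 and 37 and B0507.8 from 60.7, 54.8 and 53.8 to 32.5, 36.7 and 35.0. All lin-52 UV libraries were still above all N2 UV libraries. The interactions were -3.37 ± 0.25 and -3.11 ± 0.10 (limma, adjusted p = 4.25e-05 and 5.14e-08). Y2H9A.6 (-2.36 ± 0.24), Y6E2A.5 (-1.94 ± 0.16) and Y47G7B.2 (-1.91 ± 0.20) had the same order of groups at lower levels, with lin-52 mock the highest, then lin-52 UV, N2 UV and N2 mock. The neuropeptide gene flp-25 was the reverse in level, at 17.1, 13.8 and 17.6 in N2 mock and 28.9, 27.2 and 29.3 in N2 UV and at 4.47, 3.909 and 3.603 in lin-52 mock and 3.01, 1.72 and 2.73 in lin-52 UV (-1.42 ± 0.22, adjusted p = 0.00407).

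The genes that fell in N2 and rose in lin-52 included 3 genes of mitotic chromosome structure. The condensin subunit gene capg-2 was at 15.69, 16.49 and 16.43 in N2 mock, 13.9, 13.2 and 13.5 in N2 UV, 20.5, 23.4 and 22.8 in lin-52 mock and 27.7, 27.1 and 29.4 in lin-52 UV, with no overlap between groups (0.59 ± 0.08, limma, adjusted p = 0.00221). Another condensin gene, smc-4, went from 36.99, 38.62 and 38.82 to 34.3, 32.5 and 34.2 in N2 and from 50.44, 47.57 and 49.03 to 57.5, 58.9 and 59.7 in lin-52 (0.44 ± 0.05, adjusted p = 0.00122). The gene icp-1, the worm INCENP of the chromosomal passenger complex, had effects of -0.17 and 0.23 (0.40 ± 0.06, adjusted p = 0.00353). The condensin partner genes mix-1 and capg-1 were not called, with effects of -0.48 and -0.42 and of -0.19 and -0.16. Over the 73 tested genes of cell cycle and mitosis there were 5 positive and 3 negative calls (6.85% and 4.11%), near the background, and the medians were -0.20 and -0.18. The chromatin gene hmg-12 was more induced in lin-52 (-0.13 and 0.37, adjusted p = 0.00547). The ammonium transporter gene rhr-1 (0.52 ± 0.10), the claudin-like gene clc-11 (0.62 ± 0.15) and idpp-15 (0.53 ± 0.09) were among the genes called in opposite directions.

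In several groups the share of called genes was near or below that of all genes, which was 5.44% positive and 6.2% negative. Ribosome biogenesis genes rose in both strains, 34 of 42 in N2 and 35 in lin-52, with medians of 0.64 and 0.71. They had 1 call in each direction (2.38% each). One of these calls was that of the fibrillarin gene fib-1, which fell in N2 and rose in lin-52 (-0.23 and 0.28, limma, adjusted p = 0.0356). DNA replication genes fell in 32 of 38 cases in each strain, with medians of -0.63 and -0.56. They had 2 positive calls (5.26%, near the background) and 1 negative call (2.63%). None of 38 germline and P granule genes and none of 10 genes of X chromosome dosage compensation was called, beside 11.6% of all genes. A list of 10 genes is too short to be told from that share. A missing call does not show that the strains responded alike, since the median SE of 0.12 leaves a difference of 0.2 on the log2 scale undetected in most genes.

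The called genes also differed from the rest in expression level and length. Calls rose with the mean level, from 1.24% positive and 1.66% negative among the genes up to 4.1 FPKM to 11% and 9.91% among those of 50.25 FPKM and above, over 5 bins of about equal size. By the span of the gene in the annotation, the bin of the longest genes (5407 bases and longer) held 9.37% positive and 4.49% negative calls, and the other 4 bins 3.6% to 5% positive and 5.38% to 7.48% negative. The median UV effect of the longest genes was -0.19 in N2 and -0.15 in lin-52, while the other bins had medians from 0.01 to 0.11 in N2. The median span was 3477 bases in the less repressed genes and 2515 bases in the less induced genes, beside 2538 bases over all genes.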

How the data were processed

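RNA of whole L1 larvae was depleted of ribosomal RNA and made into stranded libraries, which were sequenced as paired 75-base reads on a HiSeq 4000. Per the labels and the study's methods, the authors aligned the reads with TopHat 2.0.10 in the QuickNGS workflow on Ensembl 85 gene models and deposited FPKM from Cufflinks 2.1.1. The genome build, the reads per library and the use of strand in the abundance estimate are not given in the sources used here, so overlapping and antisense genes cannot be told apart with certainty. DESeq2, which the study names for its tests, needs counts and was not run. An FPKM of a gene family with similar copies depends on how Cufflinks divided shared fragments.

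Of 46245 identifiers 45990 were found in the Ensembl 115 annotation (WBcel235), which gave biotype and position, and 255 were not. Symbols of 220 protein-coding genes came from RefSeq by position. FPKM were divided by median-ratio size factors (0.969 to 1.049) over protein-coding genes above 0 in all libraries, and log2(FPKM + 0.5) of the 12913 genes with a mean of at least 1 was fitted with 4 group means in limma 3.58.1 (R 4.3.3), with an intensity trend (prior df 3.28) and Benjamini-Hochberg adjustment. On this scale fold changes of low genes are understated. All log2 values, including UV effects, are from this fit, and per-library values are scaled FPKM. The labels name the libraries biological triplicates. Of the called genes 17 had a library at 0. The code was tested on simulated data.

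A gene was less induced or less repressed if called in N2 and closer to 0 in lin-52, more induced or more repressed if called in lin-52 and farther from 0, and opposite if called in both with opposite signs. Genes named were, in each of the 6 kinds, up to 6 with the largest difference among called genes averaging 5 FPKM or more, with no library at 0 and a call kept under all alternatives with 12 libraries, up to 3 called genes of each list, and DREAM genes, cep-1 and egl-1. Others (pgp-7, pgp-8, rad-23, ddb-1, cdk-7, xpa-1, xpc-1, xpg-1, polh-1, pals-22, pals-23, pals-39, pals-6, skr-3, skr-5, irg-2, irg-5, unc-54, unc-15, lev-11, myo-3, unc-17, cha-1, eat-4, fat-1, elo-2, sbp-1, pmt-1, pyk-1, pyk-2, cpr-5, col-39, noah-1, dpy-7, mix-1 and capg-1) were chosen after their values were seen. The genes and the 70 lists (68 with at least 3 tested genes, 37 of 1472 entries unmatched) were chosen with earlier results of these data known. Lists were counted, not tested.

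Alternatives were FPKM as deposited, equal sums, pseudocounts of 0.1 and 1, quantile normalization, a minimum of 0 or 5 FPKM, all biotypes, no trend or a robust one, the replicate number as a block, zeros as missing, each library left out, and, chosen after seeing the data, 2 mock libraries left out together.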

Additional observations from a re-analysis of the deposited data

Results flagged for a closer look

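The UV effect differed between N2 and lin-52 by a test of the difference itself in 702 genes with a positive and 801 genes with a negative interaction. The named genes that were less induced in lin-52, with their log2 interactions, were fipr-26 (-2.45), Y6E2A.4 (-2.36), dao-6 (-1.96), ifas-2 (-1.63), F59B1.10 (-1.52) and rrf-2 (-1.21). Less repressed genes were C01B10.7 (1.56), haf-6 (1.53), F23D12.3 (1.35), C54C6.5 (1.19), F53F1.4 (1.15) and F10D2.8 (1.05). Genes more induced in lin-52 were hpo-32 (1.09), F11C7.7 (0.93), shc-3 (0.91), F15A4.5 (0.84), col-93 (0.79) and C40H1.7 (0.78). Genes more repressed were peb-1 (-1.05), H41C03.1 (-0.72), W07E11.1 (-0.55), ttr-8 (-0.53), htrl-1 (-0.50) and rcs-1 (-0.44). In opposite directions with induction in lin-52 were col-146 (0.66), clc-11 (0.62), capg-2 (0.59), idpp-15 (0.53), rhr-1 (0.52) and col-147 (0.51). Repressed in lin-52 and induced in N2 were ddn-1 (-3.37), B0507.8 (-3.11), Y2H9A.6 (-2.36), Y6E2A.5 (-1.94), Y47G7B.2 (-1.91) and flp-25 (-1.42). These 36 genes were picked only among the 689 of 1503 called genes whose call held in all settings with 12 libraries. That their calls held is thus part of the choice and not a result. A cause for these differences was not tested.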

How the results depend on the processing

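No called gene changed its sign in any setting. Over the settings with 12 libraries other than the replicate block, positive calls were 520 to 770, negative calls 609 to 820, and every class count stayed within 1.5 times its value, while 689 of the 1503 genes were called in all of them including the block. Replicate numbers are shared between groups, but 3 of 13 same-numbered pairs of libraries had residuals correlated above 0.1 (-0.164 to 0.251), so the numbers were not taken as pairing. With the replicate block there were 372 positive and 465 negative calls (795 of the 837 shared with the 1503), with 419 less induced, 321 less repressed and 66 more strongly responding genes, 35 of them more induced. With it the negative calls were 7 in the DNA damage response list, 5 in the pals family, 6 in the F-box A genes, 3 in the P450 genes, 8 in the glucuronosyltransferases and 1 in the proteasome, and the positive calls 7 in muscle, 5 in neuron and 0 in pharynx markers, 2 in the respiratory chain, 4 in glycolysis, 4 in lipid metabolism and 1 in DREAM. With 1 library left out, positive calls ran from 356 to 1031, negative calls from 465 to 1160, less induced from 424 to 1060, less repressed from 314 to 880, more strongly responding from 56 to 202, opposite with induction in lin-52 from 10 to 27 and opposite with repression from 14 to 21. The highest counts, except the last, came without lin-52 UV 2. Without lin-52 mock 2 and lin-52 mock 4, a setting chosen after seeing the data that leaves a lone lin-52 mock library, there were 211 positive and 288 negative calls, with 279 less induced, 171 less repressed, 29 more strongly responding and 4 opposite with repression in lin-52. Of the 178 genes named by the rule, 97 lost their call there and 51 with the replicate block. Scaling moved the median interaction by at most 0.011. Leaving out libraries also leaves fewer of them in the fit. How far this or anything else lowered the counts was not tested. FPKM carry no depth, so counting error could not be given.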

Other observations

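In the fit over all biotypes few genes without a protein product had a called interaction. Of 1887 ncRNA genes, a class that the annotation does not divide further, 14 had a positive and 10 a negative call, and of 233 snoRNA genes 3 and 2. The 430 tested pseudogenes gave 5 positive and 7 negative calls, the 82 lincRNA genes 1 negative call, and the 35 miRNA, 80 tRNA and 95 snRNA genes none (limma, adjusted p below 0.05). Short RNAs are not measured well by libraries of this kind. In the same fit 528 positive and 656 negative calls fell among the 12913 protein-coding genes.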
